A study of Mus musculus with 90 samples.

Results

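Interferon response and antigen presentation genes were taken as all genes whose name in the deposited table fell under a fixed set of names: the Ifit, Ifi, Ifitm, Isg, Oas and Gbp families, the Irf and Stat families, genes with the H2 locus prefix, B2m, Tap1 and Tap2, Cd74, Psmb8, Psmb9 and Psmb10, and Bst2. The rule found 105 genes among 19962, and all 105 passed into every test because no filter on low signal was used. They comprised 28 class I and peptide-loading genes, 11 class II genes, 16 STAT and IRF transcription factors, 21 genes of the IFIT, ISG and OAS families with Bst2, and 28 genes of the IFITM, GBP and IFI families. One further gene, H2-Ke6, carries the H2 prefix for its position only and encodes a hydroxysteroid dehydrogenase. Of the 105 genes, 37 lay on chromosome 17, which holds the mouse major histocompatibility complex.

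Interferons bind cell surface receptors that signal through JAK kinases to STAT and IRF transcription factors, and these raise the transcription of many stimulated genes. Many of those genes restrict viruses, and others cut proteins into peptides, carry the peptides into the endoplasmic reticulum and load them on class I molecules for display to T cells. Class II molecules, which need the chaperone encoded by Cd74, are made mainly by professional antigen-presenting cells. In the healthy brain neurons show little of either class, while the choroid plexus, the vascularised tissue that makes cerebrospinal fluid, is known as a site of immune surveillance.

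The measurements came from GeoMx, a spatial assay that cuts barcodes off RNA probes with light inside one outlined area of interest (AOI) at a time and then sequences them. There were 6 mice in the chronic social stress group (CSS) and 4 in the control group (ctrl). Strain, sex, age and the length of the stress were not given in the labels. Each AOI came from the choroid plexus (CP), the hippocampal fields CA3 or CA1, or the motor (MC) or somatosensory (SS) cortex, and carried a label of high or low p16, a cell cycle inhibitor often measured as a sign of senescence. The basis of that label was not given in the sources used here. The 90 AOIs fell into 20 groups of 3 to 6, with 52 AOIs from CSS and 38 from ctrl mice, and no CP AOI from CSS mouse 1169. An AOI holds many cells, so fewer cells of a type and less RNA per cell cannot be told apart in any result.

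Recovered counts per AOI ran from 184469 to 2098984. The tissue labels matched their markers: Ttr, the main secreted protein of choroid plexus epithelium, averaged 79083 ± 15322 in CP (SD, n = 9 mice), against 18.1 ± 12.4 in CA1 (SD, n = 10). Snap25, a synaptic protein of neurons, averaged 29.6 ± 6.75 in CP (SD, n = 9) and at least 1142 in each other subregion. All 90 AOIs correlated best with the mean profile of their own region among the other mice, with MC and SS taken as 1 region. Cdkn2a, which encodes p16, did not separate the p16 labels: it averaged 21.7 ± 3.69 in p16 high and 22.3 ± 3.82 in p16 low tissue of hippocampus and cortex (SD, n = 10 mice, limma adjusted p = 0.92), and 22.1 ± 4.06 in p16 high and 18.6 ± 6.24 in p16 low CP (SD, n = 7, limma adjusted p = 0.888).

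Short stretches of promoter are shown for 3 genes with high signal in CP (B2m, Bst2 and Ifitm2), 1 that differed between hippocampus and cortex (H2-T23), and 3 classical interferon-stimulated genes that stayed near background (Ifit1, Ifit3 and Isg15). All of these hold the letters marked below, whereas H2-K1, also high in CP, holds no copy and is not shown. Capitals mark every copy of GAAA, any 2 bases and GAAA again, the core letters of the interferon-stimulated response element that STAT and IRF proteins bind, on either strand (TTTC, any 2 bases and TTTC is the same match on the other strand). Overlapping copies are merged, and each stretch runs 30 bases to either side.
B2m: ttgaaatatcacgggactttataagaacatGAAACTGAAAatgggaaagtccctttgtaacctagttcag
Bst2: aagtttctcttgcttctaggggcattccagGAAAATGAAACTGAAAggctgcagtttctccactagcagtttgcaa
Ifitm2: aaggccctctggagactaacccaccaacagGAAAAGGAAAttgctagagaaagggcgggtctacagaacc
H2-T23: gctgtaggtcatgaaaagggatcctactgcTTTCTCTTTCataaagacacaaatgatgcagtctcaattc
Ifit1: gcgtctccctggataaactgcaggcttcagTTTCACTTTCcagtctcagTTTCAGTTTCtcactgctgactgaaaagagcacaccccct
Ifit3: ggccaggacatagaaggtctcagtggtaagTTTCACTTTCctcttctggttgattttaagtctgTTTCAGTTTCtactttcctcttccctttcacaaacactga
Isg15: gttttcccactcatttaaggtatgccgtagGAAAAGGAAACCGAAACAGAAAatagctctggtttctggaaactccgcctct
The sequences are RefSeq promoters of the build GRCm38.p6, which corresponds to mm10, written 5′ to 3′ on the strand of the gene. They lie at chr2:122147518-122147587 (plus strand), chr8:71537557-71537632 (minus strand), chr7:140955968-140956037 (minus strand), chr17:36032786-36032855 (minus strand), chr19:34640755-34640843 (plus strand), chr19:34583343-34583446 (plus strand) and chr4:156200845-156200926 (minus strand). RefSeq promoters from 250 bases before to 50 bases after the transcript start were at hand for 88 of the 105 genes, matched by symbol. The response element letters occurred on either strand in 28 of these 88 (31.8%) and in 1079 of 27025 genes with a promoter (3.99%). TTC, any 3 bases and GAA, the letters of the gamma-activated site bound by STAT dimers, occurred in 17 of the 88 (19.3%) and in 9.55% of all genes. The response element letters were found in 7 of the 28 genes with a promoter that were higher in CP, and in 21 of the 58 that did not pass the test there. Genes of 1 family share promoter sequence and are not independent.

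The level of each gene was set against the negative control probe of the same AOI, which binds no mouse transcript and gives the background. The 105 genes were dim: 38.5% of their values lay at or below that probe, against 22.7% of the values of all genes. Their signal averaged over 1.5 times the probe in 24 of 105 genes (22.9%), against 51.2% of all 19962 genes. In CP 43 of the 105 exceeded that level, whereas 25 did so in at least 1 of CA3, CA1, MC and SS. The share of all genes over that level was not counted by subregion. The median of all genes averaged 1.64 times the probe in CP AOIs, 1.56 in CA3, 1.69 in CA1, 1.35 in MC and 1.41 in SS.

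Of the class I and loading genes, 8 of 28 averaged over 1.5 times the probe, against 8 of 16 STAT and IRF factors. B2m, the light chain shared by all class I molecules, averaged 6.05 times the negative probe over the 90 AOIs and exceeded it in all 90. It reached 13.9 times in CP, 6.01 times in CA3, 5.32 times in CA1, 3.12 times in MC and 3.12 times in SS. The classical heavy chains H2-K1 and H2-D1 were at 6.49 and 4.77 times the probe in CP, while H2-K1 lay between 1.22 and 1.31 times in the other 4 subregions. Most class I genes of the M region, which encode narrowly expressed non-classical molecules, were near or under the probe everywhere. H2-M10.2, for example, averaged 0.738 times the probe.

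Interferon-stimulated genes divided in the same way. Ifi27, an interferon-induced protein of mitochondria, was at 26.7 times the probe in CP and 5.34 times in CA1, and between 1.79 and 2.03 times in CA3, MC and SS. Bst2, or tetherin, which holds budding virus at the cell surface, was at 7.34 times the probe in CP and at most 1.59 times elsewhere. Ifitm2, which blocks virus entry through membranes, was at 6.9 times in CP and at most 1.4 times elsewhere. Classical induced genes did not show this: Ifit1, which binds foreign RNA, lay between 1.16 and 1.32 times the probe in all 5 subregions, Ifit3 between 0.877 and 1.06 times, and the ubiquitin-like Isg15 between 1.23 and 1.67 times. Irf7, which amplifies the type I response, lay between 0.536 and 1.02 times. Absolute levels of different genes rest on different probes and are not compared.

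CP was compared with hippocampus and cortex within the 9 mice that had both, to see where in the brain these genes are used. Of the 105 genes, 34 were higher and 2 were lower in CP (limma with Benjamini-Hochberg adjustment over all genes, adjusted p under 0.05), which is 34.3% of them. Fold changes are on the log2(signal + 1) scale and understate the change of dim genes, and genes that passed are said to be called. Over all genes 40.2% were called, 20.5% higher and 19.8% lower, so the share called was no larger than among genes at large. The direction was almost all upward. However, only 25 of the 105 averaged over 1.5 times the negative probe in CA3, CA1, MC or SS. A gene near background there has little room to be lower in CP, which limits what the direction shows. The median log2 fold change was 0.11 for the 105 genes and -0.03 for all genes, and the negative probe moved by -0.14.

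Ifi27 (chr12:103434189-103440245) had the highest fold change. Its signal in CP had a lowest value of 223, a median of 336.5 and a highest value of 434.6 over mice, against 28.5, 35.9 and 44.1 in hippocampus and cortex. Every mouse was higher in CP, and the groups did not overlap. The log2 fold change was 3.21 ± 0.09 (SE, limma adjusted p = 4.73e-15), or 9.26-fold. Ifitm2 followed, with a lowest, median and highest signal of 61.6, 94.7 and 109.6 in CP, against 11.7, 18.5 and 22.6 in hippocampus and cortex, a log2 fold change of 2.30 ± 0.14 (SE). Its neighbour on chromosome 7, Ifitm3, averaged 37.7 ± 7.50 in CP and 13.9 ± 1.70 in hippocampus and cortex (SD, n = 9 mice each). Ifitm genes are close in sequence, and whether their probes tell them apart was not tested. Ifitm10, a distant member of that family, went the other way, with 12.9 ± 2.58 in CP and 23.01 ± 2.91 in hippocampus and cortex (SD, n = 9), and a log2 fold change of -0.81 ± 0.11 (SE). Among the IFITM, GBP and IFI genes 9 of 28 were higher and 1 lower, the higher ones including Ifi30, a lysosomal reductase that opens disulphide bonds of antigens, at 0.94 ± 0.13 (SE of the log2 fold change). Ifi35 and Ifitm1 were called at 0.61 ± 0.12 and 0.37 ± 0.14, while Gbp2, Gbp3 and Gbp7, GTPases that attack the vacuoles of intracellular pathogens, lay between -0.02 and 0.07 and were not called.

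Bst2 (chr8:71534255-71537472) was the single called gene among the 21 of the IFIT, ISG and OAS families with Bst2. Its signal had a lowest, median and highest value of 77.5, 93.2 and 136 in CP, against 16.3, 17.8 and 25.6 in hippocampus and cortex, a log2 fold change of 2.24 ± 0.11 (SE). The other 20 did not pass. Isg15 averaged 21.8 ± 4.60 in CP and 19.8 ± 1.90 in hippocampus and cortex, and Ifit1 15.5 ± 5.48 in CP and 18.2 ± 2.30 in hippocampus and cortex (SD, n = 9 mice each), with overlapping ranges for both. The log2 fold changes of Ifit2, Ifit3, Isg20, Oas1a, Oas2 and Oasl2 lay between -0.25 and 0.18. Oasl1, an OAS-like gene without synthetase activity, reached 267.6 in the single CP AOI of ctrl mouse 1182, where the other 8 mice lay between 16.01 and 26.01.

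Class I presentation genes were higher in CP in 9 of 28 cases and lower in none. B2m (chr2:122147687-122153082) had a lowest, median and highest signal of 125, 192.8 and 240.0 in CP, against 44.3, 59.1 and 81.2 in hippocampus and cortex, without overlap, and a log2 fold change of 1.60 ± 0.07 (SE). H2-K1 (chr17:33996012-34000619) had 56.7, 85.9 and 103.9 in CP, against 15.3, 16.7 and 22.6 in hippocampus and cortex, and a log2 fold change of 2.22 ± 0.10 (SE). H2-D1 had a log2 fold change of 1.25 ± 0.10 (SE). H2-T23, which encodes the non-classical molecule Qa-1 that binds receptors of natural killer cells, had 0.90 ± 0.10. The chains of the peptide transporter, Tap1 and Tap2, had 0.58 ± 0.12 and 1.19 ± 0.12. The non-classical heavy chain genes H2-Q6 and H2-T10 had 0.41 ± 0.11 and 0.39 ± 0.09. Of the immunoproteasome subunits, which trim proteins to peptides that fit class I, Psmb8 had 0.36 ± 0.09 and was called, and Psmb9 and Psmb10 were not called. Class I heavy chain genes resemble each other closely, and how far a probe reads its neighbours was not tested.

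Class II genes were called in 6 of 11 cases, 5 of them higher. Cd74, the class II chaperone known as invariant chain, had a lowest, median and highest signal of 47.0, 69.8 and 97.2 in CP, against 12.5, 18.1 and 23.3 in hippocampus and cortex, without overlap, and a log2 fold change of 1.91 ± 0.15 (SE). H2-Ab1 and H2-Aa, the β and α chains of the class II molecule I-A, had 1.54 ± 0.16 and 1.34 ± 0.18 (SE). H2-DMb1, part of the peptide editor of class II, had 1.32 ± 0.16, but its partner chain H2-DMa was lower in CP, at -0.28 ± 0.10, a call lost without mouse 1151, 1152, 1162, 1168 or 1175. H2-Eb1 averaged 22.3 ± 4.09 in CP and 10.99 ± 2.09 in hippocampus and cortex (SD, n = 9), the second value lying under the negative probe.

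Among the STAT and IRF factors 9 of 16 were higher in CP and none lower. Irf3, which starts interferon transcription when foreign nucleic acid is sensed, had a lowest, median and highest signal of 60.1, 84.5 and 101.7 in CP, against 30.6, 37.1 and 42.9 in hippocampus and cortex, and a log2 fold change of 1.14 ± 0.09 (SE). Stat5a and Stat6, which act mainly downstream of cytokines other than interferons, had 1.09 ± 0.11 and 0.98 ± 0.12, and Stat3, a target of interleukin-6 type cytokines, 0.79 ± 0.09. The factors of the type I interferon receptor complex did not move together. Irf9 was called at 0.57 ± 0.16 and Irf7 at 0.63 ± 0.16, Irf7 averaging 12.8 in CP, level with the negative probe, and 7.96 in hippocampus and cortex, under it. In contrast, Stat2 averaged 21.2 ± 3.85 in CP and 23.7 ± 3.57 in hippocampus and cortex (SD, n = 9) and was not called. Irf1, induced by interferon gamma, had 0.79 ± 0.12, and Irf8, a factor of myeloid cells, 0.37 ± 0.12. Irf2, Irf4, Irf5 and Stat4 were not called. H2-Ke6 was higher in CP as well, at 1.11 ± 0.08.

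**Figure D1:**
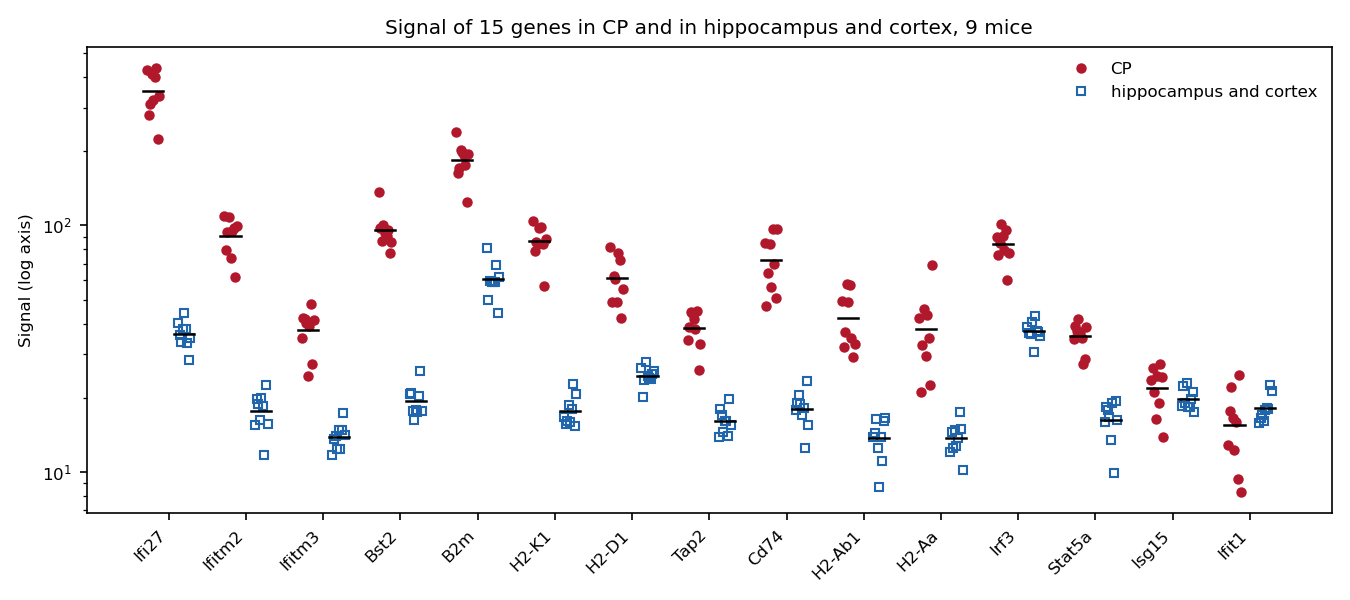
Signal per mouse (log axis) of 15 genes in CP (filled red circles) and in the mean of hippocampus and cortex (open blue squares), 9 mice each, with a bar at the mean. The 2 sets of points are apart for the 13 genes on the left, and overlap for Isg15 and Ifit1.

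Lists of related genes outside the name rule moved partly in the same direction. Of 40 other interferon-stimulated genes, 14 were higher and 2 lower in CP, among them Lgals3bp, a secreted glycoprotein, at 164 in CP and 19.2 in hippocampus and cortex, and Adar, an RNA editing enzyme, at 28.7 in CP and 65.0 in hippocampus and cortex. Of 27 other antigen processing genes, 13 were higher and 1 lower, including the lysosomal protease Ctsl with a log2 fold change of 2.76 ± 0.08 (SE) and the class I loading chaperone Calr with 1.49 ± 0.06. Of 30 interferon sensing and signalling genes, 9 were higher and 2 lower. Ifnar2, a chain of the type I interferon receptor, had 1.45 ± 0.11, and the kinase Jak1 had -0.83 ± 0.08. The median log2 fold changes of these lists were 0.21, 0.10 and 0.01, against -0.03 for all genes.

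Markers of other cells moved with the CP difference as well. Neuronal markers were lower in CP in 15 of 15 cases, oligodendrocyte markers in 11 of 12 and astrocyte markers in 8 of 12 (2 higher). Epithelial markers were higher in CP in 14 of 15 cases, endothelial markers in 13 of 18 (1 lower) and mural and fibroblast markers in 10 of 16. The summed signal of the 18 endothelial markers ran from 2437 to 4423 in CP and from 510 to 964 in the other subregions. Few markers of antigen-presenting cells were called, and their sums include background. The list median in CP was 1.57 times the negative probe for microglia and macrophage markers and 1.22 times for dendritic and lymphoid markers. Of 25 microglia and macrophage markers 3 were higher, with sums of 519 to 630 in CP and 449 to 680 elsewhere, and of 18 dendritic and lymphoid markers none passed, with sums of 259 to 329 in CP and 227 to 350 elsewhere. No dendritic or lymphoid marker averaged over 1.5 times the negative probe in CP, and Zbtb46 and Itgax, taken here as dendritic cell markers, were at 0.886 and 1.14 times. Ms4a7, a marker of border macrophages, averaged 16.6 ± 4.83 in CP (SD, n = 9), 1.21 times the probe, and was among the 3. Its log2 fold change was 0.53, and that of Laptm5, a lysosomal protein of blood-derived cells and another of the 3, was 0.31. The part of these cell types in the CP difference was not tested.

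CP of ctrl mouse 1175 stood low: it had the lowest CP signal of all 9 mice for 16 of the 34 higher genes and also the lowest sum of epithelial markers, 60330, where the other 8 mice ran from 79906 to 116670. Without that mouse 34 genes were called, 33 of them higher, and all 34 were among the 36 of all mice. Quantile normalization, scaling to the 75th percentile and subtraction of the negative probe were also tried. Of the 30 named genes called in CP, all 30 kept their direction and 27 their call under each of these. Ifitm1 lost its call under 75th percentile scaling, and Irf7 and H2-DMa with the probe subtracted.

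CA3 was set against CA1 in the 10 mice to compare the principal fields of the hippocampus. Of the 105 genes 5 were higher and 4 lower in CA3, or 8.57%, against 17.7% of all genes (5.01% higher and 12.6% lower). Quantile normalization gave 6 higher and 3 lower, scaling to the 75th percentile 13 and 3, and subtraction of the negative probe 3 and 4. Ifi27 was lower: its lowest, median and highest signals were 18.5, 29.6 and 46.6 in CA3, against 51.5, 66.8 and 93.6 in CA1, and the ranges did not overlap. Its log2 fold change was -1.19 ± 0.11 (SE, limma adjusted p = 6.97e-10). Ifitm10 had 12.5, 18.1 and 23.8 in CA3, against 28.1, 33.95 and 47.0 in CA1, also without overlap, and -0.97 ± 0.13. CA1 had the highest Ifitm10 signal of the 5 subregions, at 35.8 ± 6.64 (SD, n = 10), and the means of the other 4 lay between 12.9 and 21.5. H2-Ke6 had a log2 fold change of -0.55 ± 0.12 and H2-DMa of -0.37 ± 0.13. H2-DMa was not called under quantile normalization or under scaling to the 75th percentile.

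The genes higher in CA3 were Psmb10, an immunoproteasome subunit, Stat3, Irf1, H2-D1 and Ifi203. With the negative probe subtracted, Irf1 and H2-D1 were not called. Psmb10 had a lowest, median and highest signal of 35.9, 39.4 and 45.2 in CA3, against 19.6, 27.7 and 36.5 in CA1, was higher in all 10 mice, and had a log2 fold change of 0.53 ± 0.12 (SE). Stat3 averaged 40.7 ± 12.2 in CA3 and 26.5 ± 6.33 in CA1 (SD, n = 10 each), with 0.59 ± 0.14. Irf1 averaged 24.9 ± 7.28 in CA3 and 17.1 ± 2.74 in CA1. Ifi203, which belongs to the family of DNA-binding p200 proteins, was near background on both sides, at 1.23 times the negative probe in CA3 and 0.802 times in CA1. Leaving out 1 mouse at a time ended the call of Irf1 in 6 of 10 fits (mice 1151, 1157, 1162, 1168, 1175 and 1182), that of H2-D1 in 6 of 10 (mice 1151, 1157, 1162, 1163, 1168 and 1182) and that of H2-DMa in 9 of 10 (all but mouse 1169).

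Of the 15 markers of choroid plexus epithelium 3 were higher in CA3 (Ttr, Trpm3 and Kcne2), 1, Kl, was lower and 11 did not pass. Ttr averaged 200.4 ± 116.9 in CA3 and 18.1 ± 12.4 in CA1 (SD, n = 10 each), and the sum of the 15 epithelial markers ran from 258 to 755 in CA3 and from 243 to 308 in CA1. Astrocyte markers were higher in 6 of 12 cases and oligodendrocyte markers in 7 of 12. Of the genes higher in CA3, H2-D1, Stat3 and Irf1 were also higher in CP, while Psmb10 and Ifi203 were not called there. Of the genes lower in CA3, Ifi27 and H2-Ke6 were higher in CP, and Ifitm10 and H2-DMa were lower there. The part of epithelial cells, astrocytes and oligodendrocytes in the CA3 difference was not tested.

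Hippocampus, as the mean of CA3 and CA1, was compared with cortex, as the mean of MC and SS, in the same 10 mice. As deposited, 9 of the 105 genes were higher and 23 lower in hippocampus, or 30.5%, against 51% of all genes (34.4% higher and 16.7% lower). This split depended on the scaling. Scaling to the 75th percentile gave 4 higher and 94 lower and moved the median of all genes to -0.37, subtraction of the negative probe gave 17 higher and 2 lower with a median of 0.47, and quantile normalization gave 5 higher and 9 lower. The negative probe itself moved by -0.23, against a median of -0.18 over the 105 genes and -0.03 over all genes. Of the 23 lower genes, 19 averaged under 1.5 times the probe in these subregions, and their direction is not read further.

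Only 4 of the 24 named genes called in this comparison kept their direction and their call under all 3 of those scalings: H2-T23 and Psmb9, lower in hippocampus, and H2-Ke6 and Ifi27, higher. H2-T23 had a lowest, median and highest signal of 13.7, 19.4 and 22.7 in hippocampus, against 37.2, 41.0 and 45.3 in cortex, without overlap, and a log2 fold change of -1.07 ± 0.09 (SE, limma adjusted p = 3.68e-13). It averaged 19.3 ± 4.55 in CA3, 19.6 ± 4.98 in CA1, 37.2 ± 6.58 in MC and 46.1 ± 8.50 in SS (SD, n = 10 each), so both hippocampal fields lay under both cortical areas, with some overlap between single mice. The class I light chain went the other way as deposited: B2m had 52.6, 71.5 and 106.9 in hippocampus, against 37.2, 46.5 and 61.6 in cortex. Its log2 fold change was 0.58 ± 0.08 as deposited and -0.0018, not called, under quantile normalization. It was 0.22 under 75th percentile scaling and 0.90 with the negative probe subtracted, and called under both. Psmb9, an immunoproteasome subunit, averaged 20.9 ± 4.85 in hippocampus and 28.7 ± 3.60 in cortex (SD, n = 10), with -0.46 ± 0.09. Ifi27 had 0.57 ± 0.08 and H2-Ke6 0.68 ± 0.08, and within hippocampus Ifi27 averaged 29.3 ± 8.30 in CA3 and 67.0 ± 12.8 in CA1, against 30.5 ± 5.56 in MC and 28.0 ± 5.46 in SS (SD, n = 10 each). Neuronal markers were higher in hippocampus in 12 of 15 cases. Lower there were oligodendrocyte markers in 11 of 12 cases (1 higher, list median -0.62), astrocyte markers in 8 of 12 (1 higher, -0.26), endothelial markers in 9 of 18 (1 higher, -0.26), mural and fibroblast markers in 8 of 16 (-0.20) and microglia and macrophage markers in 13 of 25 (1 higher, -0.23), where the negative probe moved by -0.23. The part of these cells in the differences was not tested.

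MC and SS did not differ in any of the 105 genes, nor in any gene at all (0% called). Unadjusted, 6 of the 105 (5.71%) had p under 0.05, against 5.52% of all genes, among them H2-T23 with a log2 fold change of -0.30 ± 0.11 (SE, limma adjusted p = 0.881) in MC against SS.

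**Figure D2:**
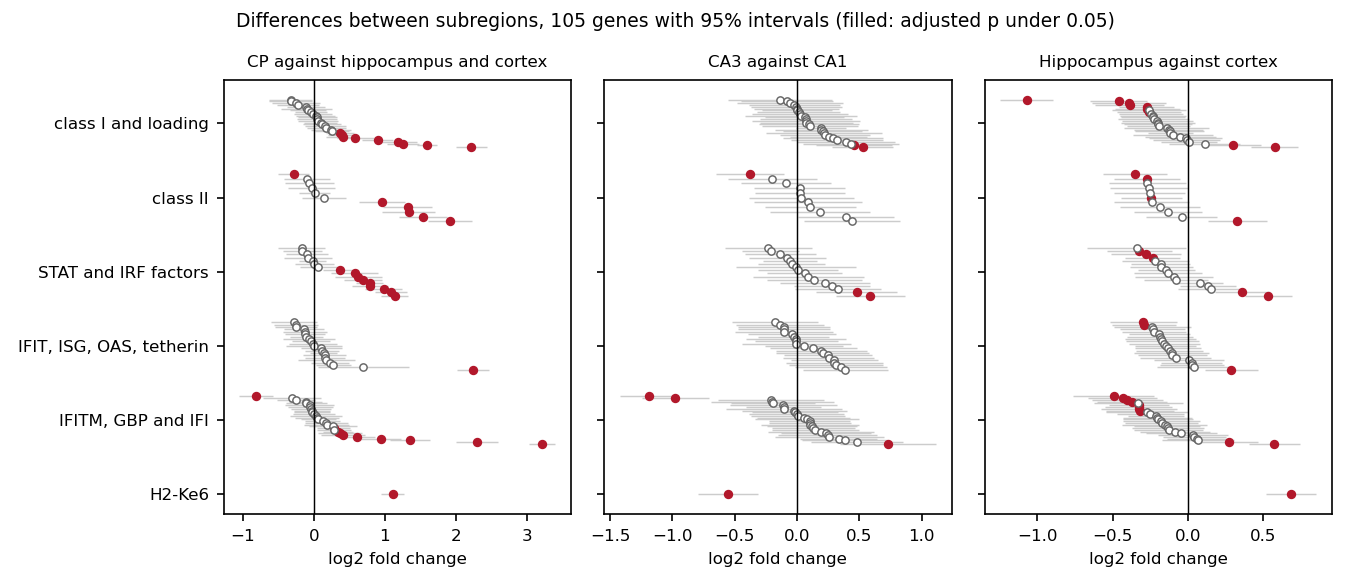
Log2 fold change with its 95% interval (grey bars) for all 105 genes, by role, in CP against hippocampus and cortex (9 mice), CA3 against CA1 and hippocampus against cortex (10 mice each). Filled points passed an adjusted p of 0.05; in CP they lie to the right of 0 except Ifitm10 and H2-DMa, and each panel has its own horizontal scale.

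**Figure D3:**
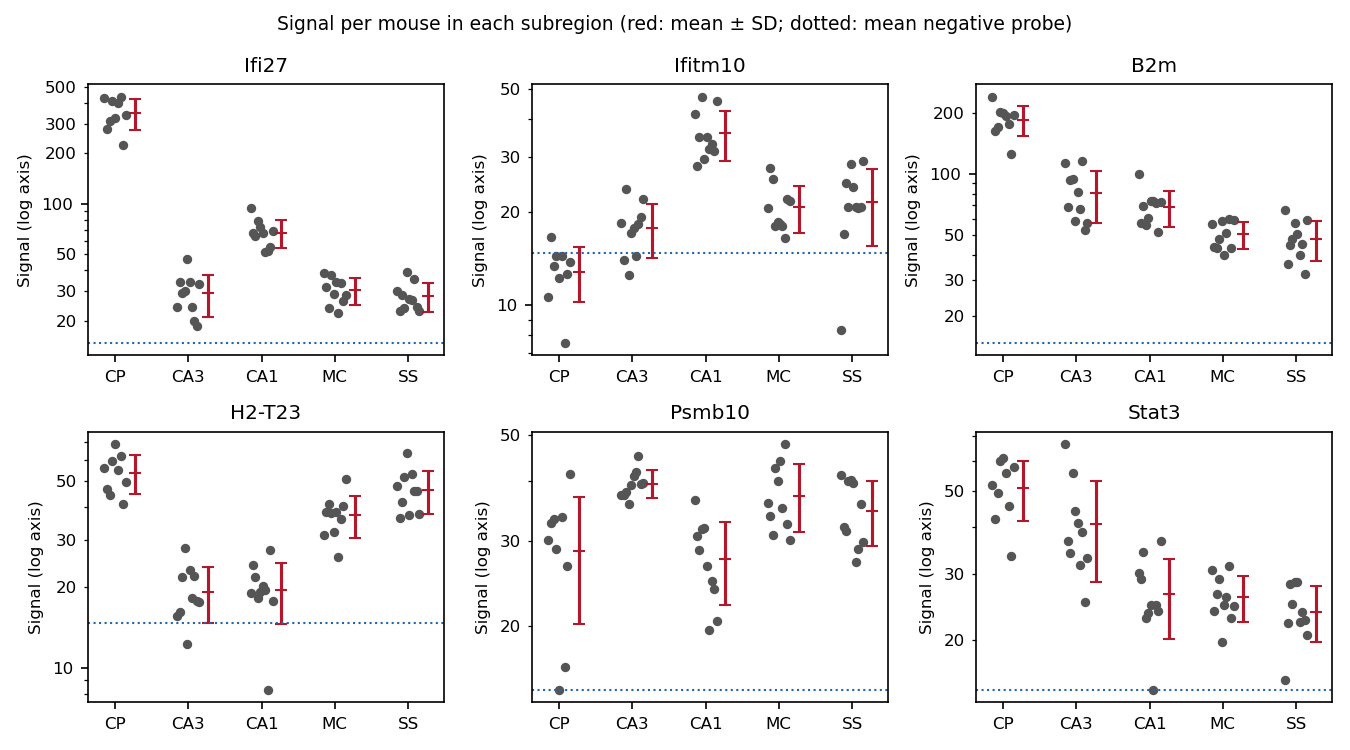
Signal per mouse (log axis) of 6 genes in the 5 subregions, with the mean ± SD in red and the mean negative probe as a dotted line (9 mice in CP, 10 elsewhere). Ifi27 and Ifitm10 are higher in CA1 than in CA3, and H2-T23 is higher in CP, MC and SS than in CA3 and CA1.

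The p16 labels were compared within mice, using only subregions with both a p16 high and a p16 low AOI. In hippocampus and cortex none of the 105 genes was called, where 74 of all genes (0.371%) were, all of them higher in p16 high tissue. Unadjusted, 6 of the 105 (5.71%) had p under 0.05 with limma, against 14.2% of all genes, and edgeR on recovered counts called none either. The median log2 fold change was -0.01 for the 105 genes and 0.03 for all genes. The 95% intervals of the 105 genes all lay between -0.65 and 0.63. A difference in signal of more than 1.57-fold in either direction thus lay outside every one of them. Signal includes the background, so this does not bound the difference in RNA of genes near the negative probe. B2m averaged 59.6 ± 10.64 in p16 high and 59.9 ± 10.96 in p16 low tissue (SD, n = 10 mice each), with a log2 fold change of -0.01 and a 95% interval of -0.13 to 0.12. The intervals were -0.16 to 0.22 for Ifi27, -0.28 to 0.11 for Bst2, -0.43 to 0.03 for H2-K1 and -0.21 to 0.27 for Cd74.

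The smallest p belonged to H2-M3, which presents formylated bacterial peptides. It had a lowest, median and highest signal of 9.39, 13.1 and 17.9 in p16 high tissue, against 14.4, 18.4 and 23.3 in p16 low tissue. The ranges overlapped, although each of the 10 mice was lower in p16 high tissue, and the log2 fold change of -0.39 ± 0.11 (SE) did not pass (limma adjusted p = 0.0989). With the ratio of the gene median to the negative probe as a covariate it passed (limma over the 10 mice, adjusted p = 0.0484), with a log2 fold change of -0.65. H2-M3 averaged 1.19 times the negative probe. Ifitm10 was higher in p16 high tissue in all 10 mice, at 24.02 ± 3.54 and 21.1 ± 4.73 in p16 low tissue (SD, n = 10), and did not pass either (log2 fold change 0.20 ± 0.09, limma adjusted p = 0.295). H2-M3 and Ifitm10 were the 2 of the 105 genes with the same direction in all 10 mice, as were 1.14% of all genes. Chosen after its values were seen, SS gave 0.64 for Ifitm10, higher in 9 of 9 mice, and CA1 gave 0.34, higher in 7 of 8. CA3 gave -0.11, with 4 of 8 mice above 0, and MC gave -0.07, with 5 of 9 above 0. Oasl2, H2-Eb2, Gbp2 and Ifitm5 were the others with p under 0.05.

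In CP 7 mice had both labels, and none of the 105 genes or of all genes (0%) was called. Unadjusted, 5 of the 105 (4.76%) had p under 0.05, against 5.25% of all genes, so the count was no higher than among genes at large. By the rule for named genes, the values at both ends include Bst2 and H2-T23. Bst2 had a lowest, median and highest signal of 56.0, 79.4 and 128 in p16 high CP, against 85.8, 103.2 and 144.8 in p16 low CP, was lower in 6 of 7 mice and had a log2 fold change of -0.38 ± 0.12 (SE, limma adjusted p = 0.888). H2-T23 averaged 58.5 ± 12.3 in p16 high and 46.6 ± 6.17 in p16 low CP (SD, n = 7 each), higher in 6 of 7 mice, with 0.30 ± 0.12 and the same adjusted p. Ifi27 averaged 353 ± 94.9 in p16 high and 359 ± 82.9 in p16 low CP, and B2m 184 ± 40.6 and 181 ± 40.3. The 95% interval was -0.19 to 0.12 for Ifi27 and -0.17 to 0.23 for B2m. Over the 105 genes the intervals reached from -0.96 to 1.02.

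The p16 difference was also compared between tissues. For Ifitm10 it was lower in CP than in hippocampus and cortex by 0.69 ± 0.24 (SE, log2 scale) in all 7 mice, and for H2-M3 higher by 0.56 ± 0.21 in all 7, and neither passed (limma adjusted p = 0.478 and 0.486). All 7 mice shared a direction in 4 of the 105 genes (3.81%), against 3.46% of all genes. No gene was called in that comparison, and 4 of the 105 (3.81%) had an unadjusted p under 0.05, against 8.82% of all genes. Nor did the p16 difference in hippocampus and cortex differ between CSS and ctrl mice in any gene, with 2 of the 105 at an unadjusted p under 0.05, or 1.9%, against 3.29% of all genes. The smallest of those p values was that of Ifitm3, at 0.55 ± 0.25 (log2 scale, CSS minus ctrl, limma adjusted p = 0.998).

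CSS mice were compared with ctrl mice to ask whether chronic stress changed these genes. Recovered counts per AOI averaged 624040 ± 280593 in CSS mice and 826280 ± 424690 in ctrl mice (SD, n = 6 and 4 mice). In hippocampus and cortex none of the 105 genes was called, nor any of all genes (0%), and none of the 105 had an unadjusted p under 0.05 with limma, where 389 of all 19962 genes did. edgeR on recovered counts also called none. B2m, adjusted for the AOIs each mouse lacked, had a lowest, median and highest signal of 50.04, 58.6 and 70.2 in the 6 CSS mice, against 44.3, 59.1, 66.0 and 81.2 in the 4 ctrl mice, which enclosed the range of the CSS mice. Its log2 fold change was -0.07 ± 0.14 (SE), with a 95% interval of -0.35 to 0.21. Irf9, the DNA-binding partner of STAT dimers, had the smallest p of the genes above 0, with a lowest, median and highest signal of 14.7, 20.3 and 22.0 in CSS mice, against 13.8, 17.8, 17.9 and 17.9 in ctrl mice. Isg20, an exonuclease, had the smallest p of all 105, with 13.3, 15.6 and 17.4 in CSS mice, against 16.8, 17.7, 18.2 and 18.7 in ctrl mice, overlapping, and a log2 fold change of -0.20 ± 0.11 (limma adjusted p = 0.9997). The 95% intervals of all 105 genes lay between -0.50 and 0.46, so that a change in signal of more than 1.41-fold was outside each of them. With background in the signal, the change in RNA of genes near the negative probe is not bounded in this way.

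In CP 5 CSS mice were set against 4 ctrl mice, and again none of the 105 genes or of all genes (0%) was called, with edgeR calling none of the 105 as well. Unadjusted, 3 of the 105 (2.86%) had p under 0.05, against 3.22% of all genes: Stat4, Tap2 and H2-Bl. Tap2 had 38.6, 40.9, 44.1, 44.6 and 45.1 in CSS mice, against 25.8, 32.5, 34.2 and 38.0 in ctrl mice. The groups did not overlap, but the log2 fold change of 0.39 ± 0.18 (SE) did not pass (limma adjusted p = 0.999). Stat4, which carries the interleukin-12 signal, had 16.9, 18.7, 19.4, 25.6 and 27.5 in CSS mice, against 9.55, 14.4, 16.2 and 16.6 in ctrl mice, again apart, with 0.58 ± 0.23. These were the 2 genes of the 105 whose groups did not overlap, a share of 1.90%, against 0.997% of all genes. In CP Tap2 averaged 2.90 times the negative probe, while Stat4 was near background at 1.36 times. H2-K1 had 78.8, 84.3, 84.3, 85.9 and 95.2 in CSS mice, against 56.7, 85.7, 98.3 and 103.9 in ctrl mice. The spread between ctrl mice exceeded that between CSS mice, mouse 1175 being the low one. Over the 105 genes the 95% intervals reached from -1.78 to 1.18, which for some genes takes in changes of over 2-fold. The lowest bound was that of Oasl1, which had 267.6 in the single CP AOI of ctrl mouse 1182, and the other genes reached from -1.30 to 1.18.

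The stress difference itself did not differ between CP and the rest of the brain in any of all genes (0% called), and 2 of the 105, Irf4 and Stat4, had an unadjusted p under 0.05, against 3.56% of all genes. Described over single subregions, the median CSS minus ctrl difference of the 105 genes was -0.01 in CP, -0.04 in CA3, -0.05 in CA1, 0.01 in MC and 0.04 in SS on the log2 scale, with the differences of single genes from -0.88 to 0.64.

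**Figure D4:**
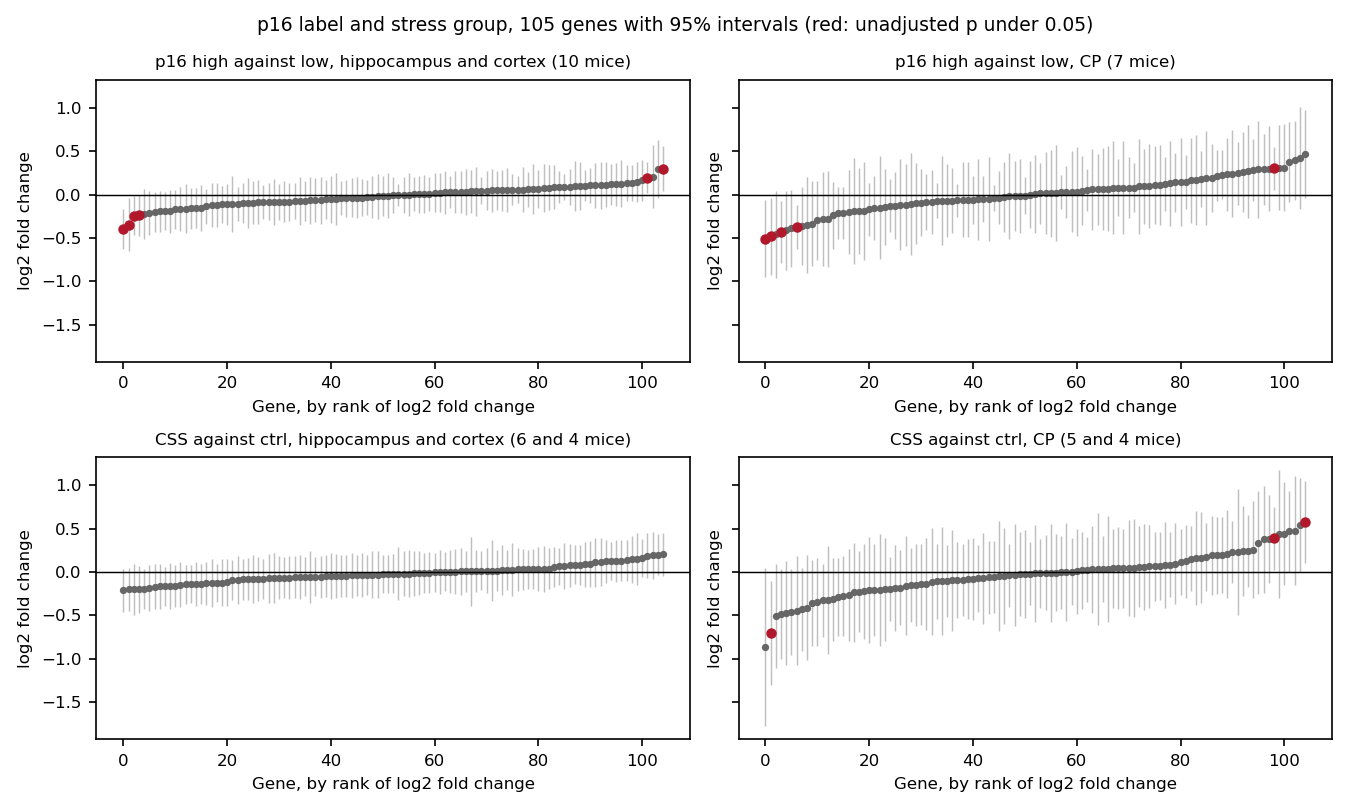
Log2 fold change with its 95% interval for each of the 105 genes, ranked within each panel, for p16 high against low (top) and CSS against ctrl (bottom) in hippocampus and cortex (left) and CP (right). Red points had an unadjusted p under 0.05 (6, 5, 0 and 3 of 105), no gene passed after adjustment, and the intervals are wider in CP, with fewer mice.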

How the data were processed

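The deposited table held 1 signal value per gene and AOI, from 5 µm FFPE sections per the labels, on build mm10 per the notes the submitters gave on processing. The read counter and aligner were not given in the sources used here. The values as deposited share a gene median of 22.067 in every AOI, as scaling of each AOI to a common median would give, a step that no label states. Dividing by the step of the low values gave whole counts (within 0.01) for at least 99.985% of genes in each AOI, with totals from 184469 to 2098984. AOIs were joined into a value per mouse as log2(signal + 1), averaged over p16 labels and subregions, and tested with limma 3.58.1 (trended variance, mouse as a block within mice) in R 4.3.3, two-sided, with Benjamini-Hochberg adjustment over 19962 genes at 0.05. For CSS against ctrl, values were first centred within subregion and p16 label, so that AOIs a mouse lacked did not shift its mean. Mouse numbers in the labels gave the pairing, and 41 pairs of p16 high and low AOIs shared a mouse and subregion, with a median correlation of deviations of 0.07. Alternatives were a pseudocount of 10, a filter at 1.5 times the negative probe, 3 other scalings, no block, mouse as a random block, edgeR 4.0.16 on recovered counts, a background covariate and leaving out each mouse. The fits were tested on simulated data. Intervals are 95% intervals of limma and cover the spread between mice only.

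The genes were chosen, and the lists written, with earlier results of these data known. The text names a set list of class I, class II, STAT, IRF and interferon-stimulated genes, the 10 called genes with the highest and the 10 with the lowest fold change in each comparison (with few calls, the 5 at each end by moderated t), and up to 4 genes of each other list. Further genes (H2-Q6, H2-T10, H2-M10.2, H2-Bl, Oasl1, Itgax, Zbtb46, Trpm3, Kcne2 and Kl) were chosen after their values were seen. Results of some genes are not reported here, although the counts include them. Figures were drawn with matplotlib 3.10.9.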

Additional observations from a re-analysis of the deposited data

Results flagged for a closer look

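In 177 groups of 4 to 10 mice, 16 had 1 mouse farther from its nearest neighbour than Dixon's 95% limit allows. Chance alone gives about 1 in 20 for independent groups. These groups share mice, and their genes were named partly for extreme values in these data, so that rate is no reference here. All values are log2 differences of single mice. In CP against hippocampus and cortex, mouse 1175 was low for Bst2 (1.5615, the other 8 mice from 2.1735 to 2.6536) and for Tap2 (0.3711, the others from 1.054 to 1.6254). There also mouse 1152 was low for Irf7 (-0.3623, the others from 0.3702 to 1.0414), mouse 1182 was low for Ifitm1 (-0.7351, the others from 0.2039 to 0.8992) and mouse 1151 was high for Irf8 (1.0699, the others from -0.0159 to 0.4174).

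For Ifitm10, mouse 1162 was low in CA3 against CA1 (-1.8284, the others from -1.135 to -0.5371) and mouse 1151 was high in hippocampus against cortex (1.0138, the others from -0.1215 to 0.399). In p16 high against low tissue of hippocampus and cortex, mouse 1163 was far from the rest for Ifitm6 (0.7911, the others from -0.1688 to 0.2958) and for H2-M3 (-1.2232, the others from -0.5878 to -0.0019).

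In CSS against ctrl in hippocampus and cortex, Irf9 had a low CSS mouse, 1170 (-0.2849, the others from 0.0714 to 0.2629), and a low ctrl mouse, 1182 (-0.3696, the others from -0.0288 to -0.0142). Ifi44 had CSS mouse 1152 low (-0.1771, the others from 0.0693 to 0.2086), and H2-M10.3 had CSS mouse 1169 low (-0.4242, the others from -0.1201 to 0.017). In CP, Ifi47 had CSS mouse 1163 high (1.1278, the others from -0.1223 to 0.1242). In the p16 difference of hippocampus and cortex, Oas1d had CSS mouse 1170 low (-0.8735, the others from -0.2395 to 0.0619). In the CSS difference between CP and the rest of the brain, Oasl1 had ctrl mouse 1182 high (3.3244, the other ctrl mice from -0.5802 to 0.0536), which is the mouse with a single CP AOI at 267.6.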

How the results depend on the processing

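The counts of called genes changed by more than 1.5 times under these settings. With only genes over 1.5 times the negative probe tested, 16 genes were called in CP against hippocampus and cortex and 13 in hippocampus against cortex, with fewer genes tested by construction. CA3 against CA1 had 16 calls under 75th percentile scaling. Hippocampus against cortex had 14 under quantile normalization, 98 under 75th percentile scaling, 19 with the negative probe subtracted and 77 with edgeR on recovered counts. In p16 high against low tissue of hippocampus and cortex, 1 gene, H2-M3, was called with the background covariate. Counted by AOI and not by mean signal, 65 of the 105 genes exceeded the negative probe in most AOIs, and 15 exceeded 1.5 times the probe in most AOIs. In hippocampus against cortex the fold change turned for B2m under quantile normalization (-0.0018), for H2-DMa (-0.0179), H2-D1 (-0.0499), Isg20l2 (-0.0575) and Ifitm10 (-0.0764) under 75th percentile scaling, and for Ifi214 (0.2231), Gbp2b (0.0833) and H2-Aa (0.0637) with the probe subtracted. The cause was not tested. Without the block for mouse, 35, 8 and 30 genes were called in CP, in CA3 against CA1 and in hippocampus against cortex, and 0 in MC against SS and in both p16 comparisons. Leaving out each mouse gave 31 to 38, 6 to 10 and 27 to 37 calls in those first 3 comparisons and 0 to 0 in each of the others. Over the named genes, 2138 alternatives kept the call or its absence, 81 lost the call, 8 turned and 1 gained it. A turn was counted only where the gene was called in either fit. A change of sign in a gene called in neither fit was counted as kept. Most of the 105 genes lie near the negative probe, which limits what a difference in them can show.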
